A study of Mus musculus with 12 samples.

Results

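Mammalian NADPH oxidases pass electrons from cytosolic NADPH across a membrane to oxygen and so make superoxide or hydrogen peroxide outside the cell. The gut epithelium has a pair of such systems, and the 5 genes described here, of 18068 in the deposited count table, are their core parts: Duox2 and Duoxa2, and Nox1, Noxo1 and Cyba. They were chosen by name for what their products do, and all 5 had counts in each of the 12 libraries and passed the filter on low counts. Duox2 is the dual oxidase of the intestinal surface, which releases hydrogen peroxide at the apical membrane, and it leaves the endoplasmic reticulum in mature form only with its maturation factor, the product of Duoxa2. Nox1 is the superoxide-making oxidase of the colon, and its activity depends on Cyba (p22phox), its membrane partner, on the organizer Noxo1, on the activator Noxa1 and on the small GTPase Rac1. In the gut these enzymes are known for defence against microbes and for redox signalling in the epithelium.

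RNA was measured by directional sequencing of poly(A) RNA in enteroids, cultures of intestinal epithelium grown from the ileum of wild-type C57Bl/6 mice. The 4 groups of 3 libraries were enteroids given butyrate at 1 mM for 48 h together with IL-13 at 20 ng/mL for 72 h, enteroids given IL-13 at the same dose and time, enteroids given butyrate at the same dose and time, and untreated enteroids. IL-13 is a type 2 cytokine whose receptor on the epithelium signals through STAT6, and butyrate is a short-chain fatty acid from bacterial fermentation that inhibits histone deacetylases. The comparisons ask how each agent changes gene expression and whether butyrate changes the response to IL-13. Whether replicates of a group are separate cultures or animals is not in the labels, so p-values measure the spread between these libraries, which may be technical. The labels give the cells as intestinal epithelial cells and do not name the number of mice.

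Duox2 and Duoxa2 lie head to head on mouse chromosome 2 of build mm10. Duox2 runs on the minus strand from 122279247 to 122298165, and Duoxa2 on the plus strand from 122298900 to 122302885, with 734 bases between the 2 starts. Duoxa1, the maturation factor of the sister oxidase Duox1, lies on the minus strand from 122302191 to 122313730 and overlaps the end of Duoxa2 by 695 bases. Duox1 follows on the plus strand from 122315672 to 122347972. The promoter sequences of the 3 genes of this locus that could be tested are shown here, each from 250 bases before to 50 bases after the start in RefSeq on GRCm38.p6, with Duox2 and Duoxa1 read on the minus strand (chr2:122298178-122298477 and chr2:122313681-122313980) and Duoxa2 on the plus strand (chr2:122298650-122298949). Capitals mark matches to the letters searched. In Duoxa1 they are the core of a GC box, GGGCGG. In Duoxa2 they are the same core read on the other strand and, nearest to the start, the letters of a TATA box, TATAAA.
Duox2: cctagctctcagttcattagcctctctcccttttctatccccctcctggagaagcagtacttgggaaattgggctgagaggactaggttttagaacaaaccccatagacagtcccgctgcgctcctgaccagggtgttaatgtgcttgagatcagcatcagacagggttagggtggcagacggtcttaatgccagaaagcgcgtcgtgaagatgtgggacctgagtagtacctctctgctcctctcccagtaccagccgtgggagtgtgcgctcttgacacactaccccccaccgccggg
Duoxa2: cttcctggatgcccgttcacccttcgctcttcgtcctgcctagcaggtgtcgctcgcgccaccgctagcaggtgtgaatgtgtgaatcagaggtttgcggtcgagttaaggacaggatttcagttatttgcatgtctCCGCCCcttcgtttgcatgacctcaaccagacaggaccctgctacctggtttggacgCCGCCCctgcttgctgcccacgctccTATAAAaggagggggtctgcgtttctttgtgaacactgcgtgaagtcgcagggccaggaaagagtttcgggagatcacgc
Duoxa1: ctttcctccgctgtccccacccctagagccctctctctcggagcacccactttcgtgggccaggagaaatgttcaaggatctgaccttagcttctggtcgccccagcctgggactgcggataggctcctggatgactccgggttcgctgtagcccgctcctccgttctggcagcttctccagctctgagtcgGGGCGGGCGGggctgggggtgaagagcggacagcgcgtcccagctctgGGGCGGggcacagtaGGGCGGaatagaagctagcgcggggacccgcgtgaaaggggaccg

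The Duox2 window held no match to any of the 5 motifs searched on both strands, which were the GC box core, the TATA box and 3 spaced forms. The spacing typical of STAT6 was searched as TTC, any 4 bases and then GAA, and that of other STATs in the same way with 3 bases. A loose NF-kB form, which can overlap the GC box core, was searched as GGG, any 5 bases and then CC. The Duoxa2 window held the core at 113 and 56 bases before the start and the TATA box at 30 bases before it, and the Duoxa1 window held 4 matches to the core. Among all 32851 RefSeq windows of 300 bases, 35.7% held the GC box core, 13.6% the TATA box, 50.8% held the NF-kB form, 6.95% the STAT6 spacing and 8.30% the other STAT spacing. None of the windows of the 5 oxidase genes held either STAT spacing, which says only that these letters are not in these windows. The Noxo1 window had a GC content of 80.3% with 3 matches to the core, the Cyba window 60.7% with 2, and the Nox1 window 38% with none, against a median of 52.7% over all windows. Duox2 and Duoxa2 lay near that median, at 55.3% and 56.7%. The Nox1 window, at chrX:134111805-134112104, surrounds the RefSeq start. It lies inside the span of this minus-strand gene in the count table, and not at the upper end of that span, 134221956.

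The other members lie apart. Nox1 runs on the minus strand of chromosome X from 134086421 to 134221956, Noxo1 on the plus strand of chromosome 17 from 24696234 to 24700529, and Cyba on the minus strand of chromosome 8 from 122424772 to 122432940. Where exons of 2 genes overlap on opposite strands, reads can be told apart only if counting used strand, and the libraries were directional, but the setting used in counting is not stated in these sources. Duoxa2 shares 682 exon bases with Duoxa1 (42.8% of the exon length of Duoxa2), Noxo1 shares 1347 with Tbl3 (60.2% of Noxo1), and Nox1 shares 399 with Cstf2 (15.6% of Nox1). These shares do not bound the uncertainty, which also depends on the level of the overlapping gene. Over the 12 libraries Tbl3 had 997 to 2179 counts beside 795 to 1692 for Noxo1. Cstf2 had 455 to 1859 beside 23 to 140 for Nox1, and Duoxa1 had 46 to 2046 beside 261 to 10114 for Duoxa2. How many counts came from the other strand was not tested.

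Library totals ran from 13867982 to 15618074 counts with both agents, 14239405 to 15008598 with IL-13, 17006538 to 24294456 with butyrate and 16303915 to 22558599 in untreated enteroids. Levels are given in CPM, the count of a gene relative to its TMM-scaled library total, and a gene was called at an edgeR adjusted p under 0.05 over 13750 tested genes. Of the genes called for IL-13 over untreated, 50.1% were higher, against 28.1% when scaled on plain library totals. The same split was 65.1% against 47.0% for butyrate over untreated, 46.5% against 19.7% for both agents over IL-13 and 47.9% against 22.6% for both agents over butyrate. The 7 epithelial markers (Epcam, Cdh1, Vil1, Krt8, Krt18, Krt19 and Cldn7) summed to 12320 to 12750 CPM with both agents, 10910 to 11190 with IL-13, 8798 to 10590 with butyrate and 9325 to 9619 in untreated enteroids, so the libraries with IL-13 were the higher ones. Leukocytes use Cyba too, and 11 of 14 leukocyte markers were in the table. Their sum was 34.5 to 36.6 CPM with both agents, 31.5 to 37.2 with IL-13, 30.7 to 33.6 with butyrate and 28.7 to 33.4 in untreated enteroids, with 2 to 5 of the 11 at 0 in each library. Csf1r had 225 to 462 counts a library, Itgam 85 to 212, Cd68 45 to 96, Ly6g 23 to 110, Lyz2 0 to 33 and S100a9 0 to 13. Ptprc, the pan-leukocyte marker CD45, had 1 to 10 counts a library, and Mpo, S100a8, Itgb2 and Cd3e had at most 4. Cd68 averaged 5.41 CPM with both agents, 5.19 with IL-13, 2.68 with butyrate and 2.49 in untreated enteroids. Lyz2 averaged 0.209 CPM with both agents, 0.233 with IL-13, 1.18 with butyrate and 0.302 in untreated enteroids. Of 5 leukocyte markers tested, 1 was called higher and 0 lower for IL-13 over untreated, beside 21.8% and 21.7% of all genes. For butyrate over untreated 2 were called higher and 0 lower, beside 5.14% and 2.76%. For both agents over butyrate 1 was called higher and 1 lower, beside 22.9% and 24.9%. For both agents over IL-13 0 were called higher and 0 lower, beside 9.85% and 11.3%. The summed markers of fibroblasts and endothelium reached at most 0.613 and 1.23 CPM in any library. The part of these sums in the results was not tested. Butyrate replicate 2 and butyrate + IL-13 replicate 3 stood apart in Lars2, a mitochondrial leucyl-tRNA synthetase gene, and the calls of named genes that are lost when both are left out are given with each result.

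Measured per kilobase of exon, Duoxa2 and Duox2 had the highest values of the 5 genes with IL-13 and Cyba and Noxo1 in its absence. The values of Noxo1 cannot be told apart from reads of Tbl3 on the opposite strand, so its place in these orders is uncertain. With both agents the levels were 467 ± 26.6 CPM per kb for Duoxa2, 169 ± 10.7 for Duox2, 38.2 ± 4.58 for Cyba, 29.0 ± 1.99 for Noxo1 and 0.869 ± 0.212 for Nox1 (SD, n = 3). With IL-13 they were 394 ± 33.1, 127 ± 4.76, 37.7 ± 2.60, 31.4 ± 2.79 and 1.37 ± 0.332 CPM per kb in the same order of genes. With butyrate the order was Cyba at 33.5 ± 3.4, Noxo1 at 29.4 ± 2.27, Duoxa2 at 10.2 ± 1.57, Duox2 at 6.02 ± 0.570 and Nox1 at 1.61 ± 0.471 CPM per kb. Untreated enteroids had the same order, with Cyba at 36.0 ± 2.03, Noxo1 at 29.8 ± 4.36, Duoxa2 at 15.98 ± 1.79, Duox2 at 7.18 ± 0.815 and Nox1 at 1.88 ± 0.364 CPM per kb. Neighbours in these orders differed by more than their summed SDs except Cyba and Noxo1 with butyrate and in untreated enteroids. Among 13592 tested genes with an exon length, Duoxa2 ranked 107th with IL-13 and 4669th in untreated enteroids, and Duox2 ranked 546th with IL-13 and 7612th in untreated enteroids. Nox1 was near the bottom in each group, at ranks 11465 with both agents, 11081 with IL-13, 10961 with butyrate and 10772 untreated.

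**Figure D1:**
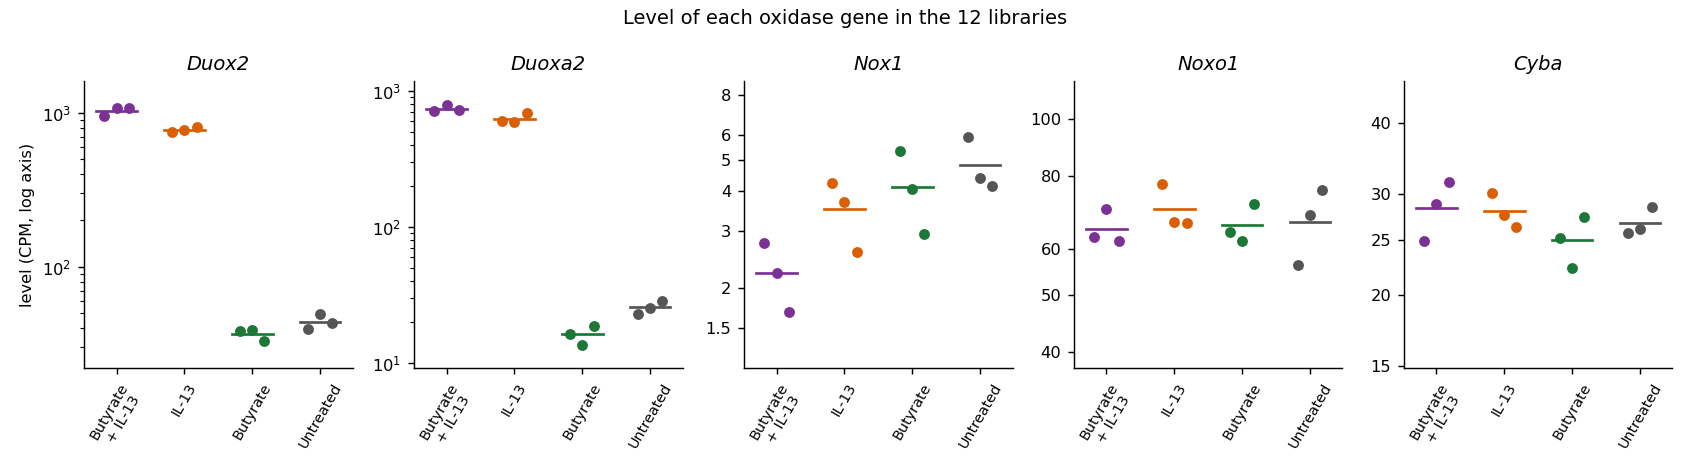
The level of each of the 5 genes in CPM (log axis, its own range for each gene) is plotted for the 3 libraries of each group as points, with the group mean as a line. Duox2 and Duoxa2 separate the 6 libraries with IL-13 from the 6 without, whereas the groups lie within narrow ranges for Noxo1 and Cyba and at 1.68 to 5.89 CPM for Nox1.

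IL-13 raised Duox2 and Duoxa2 by more than an order of magnitude, and no other of the 5 genes was called. Duox2 was at 748, 777 and 806 CPM in the 3 IL-13 libraries, against 39.4, 49.3 and 43.0 CPM in the untreated ones. The lowest IL-13 library was thus far above the highest untreated one, and the groups did not overlap. The log2 fold change was 4.14 ± 0.10 (SE), or 17.7-fold with a 95% interval of 15.2 to 20.6, at an edgeR adjusted p of 2.44e-15, the second smallest p among the 13750 genes. Duoxa2 was at 600, 595 and 688 CPM in IL-13 libraries, against 22.8, 25.2 and 28.4 CPM in untreated libraries. These groups did not overlap either, and the log2 fold change was 4.63 ± 0.12, or 24.7-fold (95% interval 20.8 to 29.4), at an edgeR adjusted p of 2.44e-15. By size of the fold change the 2 genes ranked 33rd and 27th of all genes tested. The 2 members called of 5, both higher, stand beside 43.5% of all genes called in this comparison, with 21.8% higher and 21.7% lower. In bulk RNA a change in the number of cells that express a gene and a change in RNA per cell cannot be told apart. The authors' deposited table gives log2 fold changes of 4.15 for Duox2 and 4.64 for Duoxa2 for the same pair of groups.

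In the presence of butyrate the contrast was larger still. Duox2 was at 958, 1070 and 1073 CPM with both agents, against 38.5, 39.1 and 32.8 CPM with butyrate. Its groups did not overlap, and the log2 fold change was 4.81 ± 0.11, or 28.1-fold (24.0 to 32.8), at an edgeR adjusted p of 3.1e-16. Duoxa2 was at 715, 792 and 723 CPM with both agents, against 16.4, 13.6 and 18.6 CPM with butyrate. That is a log2 fold change of 5.52 ± 0.13, or 46.0-fold (38.3 to 55.2), at an edgeR adjusted p of 3.24e-16. Of the 5 genes, 2 were called higher and Nox1 was called lower for both agents over butyrate, where 47.7% of all genes were called, 22.9% higher and 24.9% lower.

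Butyrate alone lowered Duoxa2, and Duox2 lay lower without passing the test. Duoxa2 averaged 16.2 ± 2.51 CPM with butyrate and 25.5 ± 2.85 CPM in untreated enteroids (SD, n = 3 each). Each butyrate library was below each untreated one, the log2 fold change was -0.65 ± 0.11, and the edgeR adjusted p was 0.00131. For Duox2 the means were 36.8 ± 3.48 CPM with butyrate and 43.9 ± 4.98 CPM in untreated enteroids. The highest butyrate library was at 39.1 CPM and the lowest untreated one at 39.4, so that the groups touched without overlapping, and the log2 fold change of -0.25 ± 0.10 (95% interval -0.46 to -0.05) had an edgeR adjusted p of 0.127. Duoxa2 was the 1 member called of 5 in this comparison, where 7.9% of all genes were called, 5.14% higher and 2.76% lower.

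For both agents over IL-13, Duox2 was higher and Duoxa2 was not called. Duox2 averaged 1034 ± 65.5 CPM with both agents and 776.7 ± 29.1 CPM with IL-13 (SD, n = 3 each). All libraries with both agents were above all IL-13 libraries, and the log2 fold change of 0.41 ± 0.09, or 1.33-fold (1.17 to 1.52), had an edgeR adjusted p of 0.00326. Duoxa2 averaged 743 ± 42.4 CPM with both agents and 628 ± 52.7 CPM with IL-13. The libraries did not overlap, but the log2 fold change of 0.24 ± 0.10 (95% interval 0.03 to 0.45) was not called at an edgeR adjusted p of 0.0939. That call depended on the setting: the adjusted p was 0.0402 when only these 2 groups were fitted, 0.044 with DESeq2, and 0.0432 and 0.0431 without butyrate replicates 2 and 3. Duox2 was the 1 member called of 5, where 21.2% of all genes were called, 9.85% higher and 11.3% lower.

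The difference between the 2 IL-13 contrasts was itself tested as an interaction. For Duoxa2 the response to IL-13 was larger with butyrate than without it by 0.90 ± 0.15 on the log2 scale, a factor of 1.86 (1.49 to 2.32), with an edgeR adjusted p of 0.00732. For Duox2 it was larger by 0.67 ± 0.13, a factor of 1.59 (1.31 to 1.92), with an edgeR adjusted p of 0.0187. The Duox2 call was lost without untreated replicate 2 (0.57, adjusted p 0.0805), IL-13 replicate 1 (0.64, 0.0592), IL-13 replicate 2 (0.67, 0.0565) or butyrate + IL-13 replicate 3 (0.65, 0.0566). Of the 5 members, 2 were called for the interaction, both higher, beside 0.865% of all genes, with 0.255% higher and 0.611% lower. The other 3 had interaction estimates of -0.44 ± 0.39 for Nox1, -0.09 ± 0.15 for Noxo1 and 0.12 ± 0.16 for Cyba, with edgeR adjusted p from 0.786 to 0.919. These contrasts share libraries, since the interaction is made from the same 4 groups as the pairwise comparisons.

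**Figure D2:**
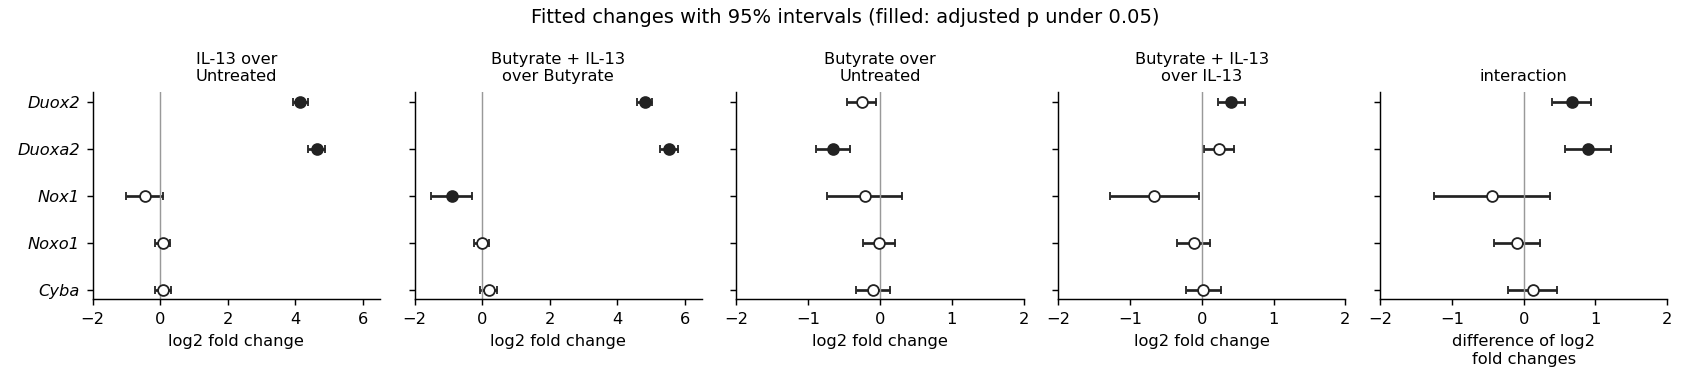
Fitted log2 fold changes of the 5 genes (points, with 95% intervals as bars) are plotted for the 4 pairwise comparisons and the interaction, with filled points for an adjusted p under 0.05; the first 2 panels span a wider axis than the other 3. The pair Duox2 and Duoxa2 lies at 4.14 to 5.52 in both IL-13 comparisons, to the left of 0 for butyrate over untreated and to the right of 0 for both agents over IL-13, and the intervals of Noxo1 and Cyba include 0 throughout.

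The ratio of oxidase to maturation factor counts lay lower with IL-13 in these libraries, but no ratio test passed after adjustment. Duoxa2 shares exon bases with Duoxa1, and the part of that overlap in the ratio was not tested. The log2 ratio of Duox2 to Duoxa2 counts was 0.32, 0.39 and 0.23 in the IL-13 libraries, against 0.79, 0.97 and 0.60 in the untreated ones, a difference of -0.48. With both agents it was 0.42, 0.43 and 0.57, against 1.24, 1.53 and 0.82 with butyrate, a difference of -0.72. Every library with IL-13 was thus below every library without it within each of these pairs, and relative to Duox2 more counts were assigned to Duoxa2 with IL-13. Each of these exact two-sided permutation tests gave p = 0.1, the smallest possible with 3 against 3, and 0.229 after adjustment over 8 ratio tests. For butyrate over untreated the ratio differed by 0.41 with overlapping groups (exact p = 0.2), and for both agents over IL-13 by 0.17 without overlap (exact p = 0.1).

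Duoxa1, the neighbour of Duoxa2 on the opposite strand, followed it closely. It was at 161, 151 and 136 CPM with both agents, 144, 117 and 139 CPM with IL-13, 3.76, 2.39 and 3.74 CPM with butyrate, and 4.71, 6.04 and 4.71 CPM in untreated enteroids. Its log2 fold change was 4.69 ± 0.14 for IL-13 over untreated (edgeR adjusted p 2.49e-14) and 5.49 ± 0.15 for both agents over butyrate (7.95e-15). For butyrate over untreated it was -0.64 ± 0.17 (adjusted p 0.0275), a call lost without untreated replicate 2 (-0.51, 0.17), butyrate replicate 2 (-0.47, 0.111) or both libraries that stood apart in Lars2 (-0.47, 0.0882). The count of Duoxa1 was 0.166 to 0.240 of that of Duoxa2 over the 12 libraries, with means of 0.201 ± 0.0210 with both agents, 0.213 ± 0.0238 with IL-13, 0.202 ± 0.0267 with butyrate and 0.204 ± 0.0372 in untreated enteroids. The ratio did not move with the treatment beyond its spread while Duoxa1 was 25.7-fold and Duoxa2 24.7-fold higher with IL-13, and the shared bases are 23.8% of the exon length of Duoxa1. Transcription of Duoxa1 and reads from Duoxa2 counted for it cannot be told apart here. Duox1, the oxidase that Duoxa1 serves, had 11 counts summed over the 12 libraries and was not tested.

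**Figure D3:**
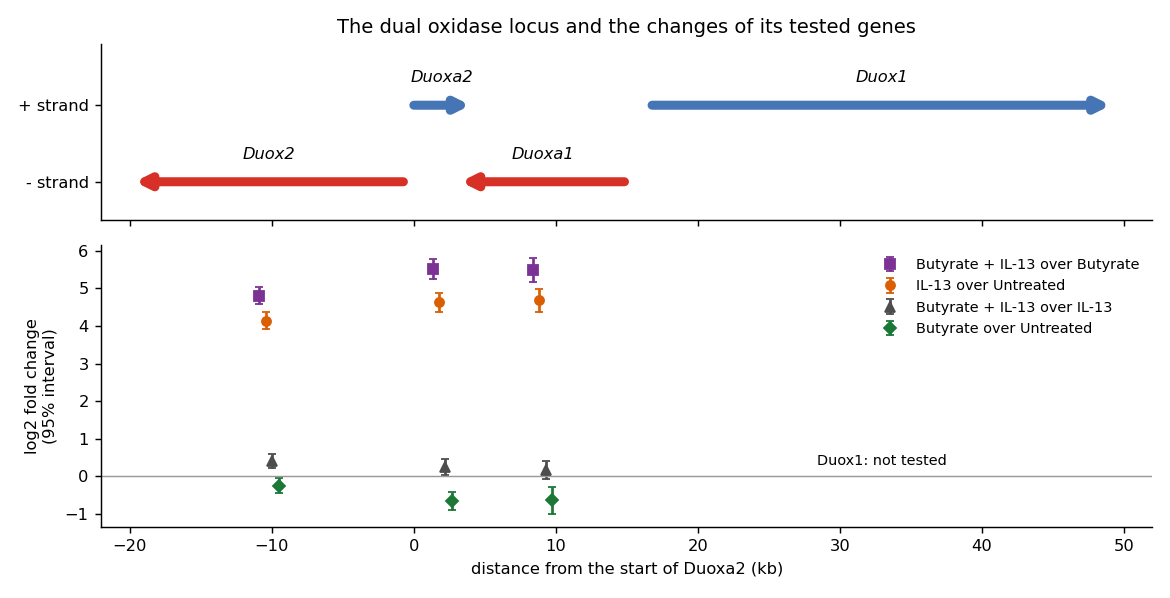
The upper panel maps the 4 genes of the dual oxidase locus by strand against the distance from the start of Duoxa2 in kb, with arrows pointing in the direction of transcription; the lower panel gives their log2 fold changes with 95% intervals at the position of each gene. The 3 tested genes lie between 4.14 and 5.52 in the comparisons that add IL-13, from -0.65 to -0.25 for butyrate over untreated and from 0.16 to 0.41 for both agents over IL-13, and Duox1 was not tested.

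The counts of Nox1, Noxo1 and Cyba showed no such rise. Exons of Nox1 and Noxo1 overlap those of Cstf2 and Tbl3 on the opposite strand. How far reads of Cstf2 and Tbl3 entered the values was not tested. Nox1 itself was a low-abundance transcript with 23 to 140 counts a library. It was at 2.77, 2.23 and 1.68 CPM with both agents, 4.25, 3.71 and 2.59 CPM with IL-13, 5.36, 4.06 and 2.95 CPM with butyrate, and 5.89, 4.42 and 4.16 CPM in untreated enteroids. All 3 libraries with both agents lay below every butyrate and every untreated library, while the other group ranges overlapped, IL-13 replicate 3 being lower than replicate 1 with both agents. The log2 fold change for both agents over butyrate was -0.91 ± 0.28, or 0.534-fold (0.354 to 0.806), at an edgeR adjusted p of 0.0133. That call was lost without butyrate replicate 1 (-0.66, adjusted p 0.095), without butyrate + IL-13 replicate 3 (-0.71, 0.0777), and without both libraries highest in Lars2 (-0.76, 0.0782). The remaining estimates for Nox1 were -0.46 ± 0.26 for IL-13 over untreated (adjusted p 0.164), -0.22 ± 0.25 for butyrate over untreated (0.683) and -0.66 ± 0.30 for both agents over IL-13 (0.125).

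Noxo1 and Cyba passed the edgeR test in none of the 5 comparisons, and their lowest unadjusted p values were 0.316 and 0.114. DESeq2 called neither gene. Noxo1 was at 62.9, 70.1 and 62.0 CPM with both agents, 77.4, 66.7 and 66.6 CPM with IL-13, 64.0, 61.9 and 71.6 CPM with butyrate, and 56.3, 68.6 and 75.5 CPM in untreated enteroids. The untreated libraries alone spanned nearly the range of all groups. For IL-13 over untreated its log2 fold change was 0.07 ± 0.11 with a 95% interval of -0.15 to 0.30. A change of the assigned counts beyond 1.23-fold higher thus lay outside the interval. Because these counts cannot be told apart from reads of Tbl3, the interval does not bound a change in Noxo1 RNA. Cyba was at 24.8, 28.9 and 31.6 CPM with both agents, 30.1, 27.6 and 26.3 CPM with IL-13, 25.2, 22.3 and 27.4 CPM with butyrate, and 25.7, 26.1 and 28.5 CPM in untreated enteroids. All of its group ranges overlapped, and for IL-13 over untreated the log2 fold change was 0.07 ± 0.11 (95% interval -0.17 to 0.31). The largest estimate for Cyba was 0.19 ± 0.11 for both agents over butyrate, with an edgeR adjusted p of 0.181, which became 0.31 with an adjusted p of 0.0427 without butyrate + IL-13 replicate 1. For both genes the sign of the IL-13 estimate turned when libraries were scaled on plain totals, at -0.10 for each. The authors' deposited table gives log2 fold changes of 0.08 for Noxo1, 0.07 for Cyba and -0.46 for Nox1, with FDRs of 0.667, 0.720 and 0.221.

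Noxa1, the activator that joins Noxo1 on the Nox1 complex, fell with each agent. It was at 7.43, 8.36 and 7.17 CPM with both agents, 9.08, 10.3 and 14.2 CPM with IL-13, 16.4, 16.02 and 19.8 CPM with butyrate, and 26.0, 26.2 and 25.9 CPM in untreated enteroids. The 4 groups followed each other in this order without overlap. The log2 fold change was -1.21 ± 0.15 for IL-13 over untreated (edgeR adjusted p 3.09e-06) and -1.18 ± 0.16 for both agents over butyrate (6.86e-06). For butyrate over untreated it was -0.58 ± 0.14 (0.0136), a call lost without untreated replicates 2 (0.0579) or 3 (0.0523) or butyrate replicate 1 (0.077). For both agents over IL-13 it was -0.55 ± 0.16 (0.0229), lost without IL-13 replicate 3 (-0.34, 0.161), butyrate + IL-13 replicates 1 (0.0636) or 3 (0.0951) or both libraries that stood apart in Lars2 (0.0643). Rac1, the GTPase of the complex, was called in none of the comparisons and stood at 105 CPM per kb with both agents, 104 with IL-13, 104 with butyrate and 96.4 in untreated enteroids.

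The overlaps on the opposite strand bear on Noxo1 most. Counts of Noxo1 were 0.732 to 0.797 of those of Tbl3, a ribosome biogenesis gene, over the 12 libraries, with means of 0.791 ± 0.00733 with both agents, 0.792 ± 0.00177 with IL-13, 0.783 ± 0.00468 with butyrate and 0.767 ± 0.0318 in untreated enteroids. Tbl3 was also the gene with the pattern most like that of Noxo1, at a root mean square difference of 0.0316 on the log2 scale. The values given for Noxo1 and reads from Tbl3 cannot be told apart. Nox1 counts were 0.0499 to 0.0873 of those of Cstf2, an mRNA cleavage factor gene, which fell by 0.51 ± 0.12 with IL-13 over untreated (edgeR adjusted p 0.00205) and by 0.76 ± 0.12 with both agents over butyrate (5.08e-05). How far the counts of Nox1 follow Cstf2 reads was not tested. Cyba lies inside the span of the opposite-strand gene Gm20388 but shares no exon bases with it.

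**Figure D4:**
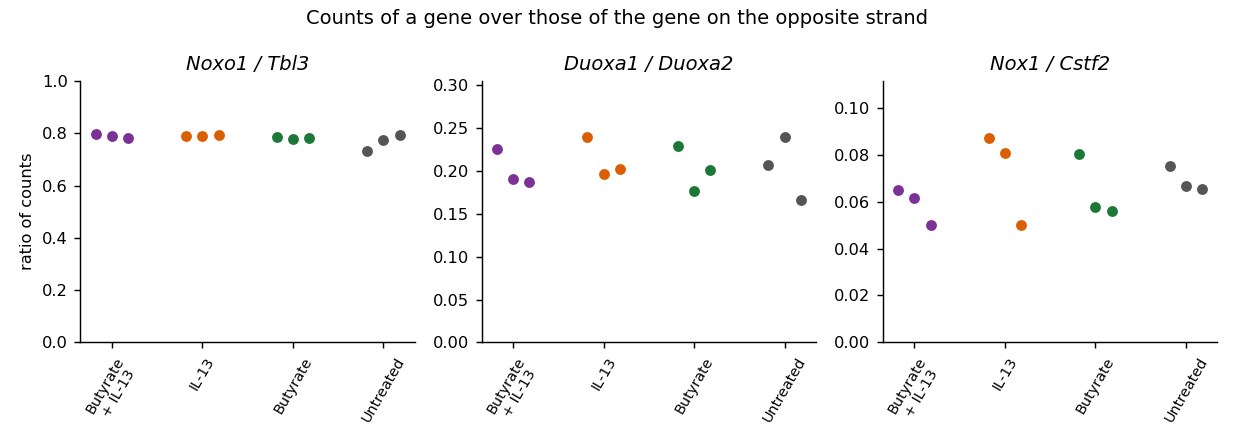
Ratios of raw counts are plotted for each library and group for 3 pairs of genes with overlapping exons on opposite strands, each axis starting at 0. Noxo1 over Tbl3 stays at 0.732 to 0.797, Duoxa1 over Duoxa2 at 0.166 to 0.240 and Nox1 over Cstf2 at 0.0499 to 0.0873.

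Likeness of pattern was measured as the root mean square difference of log2 CPM, each gene centred on its own mean, over the 12 libraries and among 10763 genes whose mean count was 50 or more. The 3 genes most like Duox2 were Sprr2a3, a small proline-rich protein of epithelia, at 0.242, the malic enzyme Me1 at 0.325 and Tgfbi, a secreted matrix protein, at 0.349, against a median of 2.26 over all genes. Duoxa2 was most like Duoxa1 at 0.160, the calpain Capn13 at 0.305 and Sprr2a3 at 0.499. Counts of Duoxa1 cannot be told apart from reads of Duoxa2, whose exons it overlaps. Duox2 and Duoxa2 differed from each other by 0.375, and for each of them at least 2 genes outside the pair were closer. Nox1 was closest to Tasp1 at 0.192, Iqce at 0.195 and Maml2 at 0.209, and its distance to Noxo1 was 0.519, near its median of 0.533 over all genes. Cyba was closest to Tbc1d22b at 0.0542, Galnt10 at 0.0603 and Dctn2 at 0.0656, and Noxo1, after Tbl3, to Zgpat at 0.0621 and Usp19 at 0.0765. Cyba and Noxo1 differed by 0.130, against medians of 0.268 and 0.269. Genes without treatment changes are close to each other on this measure because they vary little.

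Of 16 other genes of the NADPH oxidase family, 13 were in the table and 9 could be tested. For IL-13 over untreated 2 rose (Duoxa1 and Rac2) and 3 fell (Noxa1, Rac3 and Cybc1), beside 21.8% of all genes called higher and 21.7% lower, and the list's median was -0.20 on the log2 scale, against -0.01 over all genes. The calls of Duoxa1 here and below cannot be told apart from reads of Duoxa2. Rac2, the GTPase of phagocyte oxidases, had 34, 61 and 35 counts in IL-13 libraries, against 0, 19 and 1 counts in untreated ones, a log2 fold change of 3.33 ± 0.76 (edgeR adjusted p 0.00177) that was 6.58 without untreated replicate 2. Cybc1, a chaperone of the phagocyte oxidase, fell by 0.37 ± 0.10 with IL-13 (edgeR adjusted p 0.00621). Butyrate over untreated gave 3 lower calls (Noxa1, Duoxa1 and the podosome organizer Sh3pxd2b) and none higher, beside 2.76% and 5.14% of all genes. Of the lower calls, 1 was left without butyrate replicate 2 or without either of the untreated replicates 2 and 3. The Sh3pxd2b call was also lost without untreated replicate 1 (edgeR adjusted p 0.0815) or butyrate replicate 3 (0.0574). It was lost too when only the groups compared were fitted (0.059). No member had an unadjusted p under 0.05 in the higher direction, and DESeq2 called none higher. For both agents over butyrate 2 rose (Duoxa1 and Rac2) and 3 fell (Noxa1, Cybc1 and Sh3pxd2b), but Rac2 was lost without butyrate replicates 1 or 3 or butyrate + IL-13 replicates 1 or 2, and Cybc1 without butyrate replicate 3, butyrate + IL-13 replicates 2 or 3 or both libraries that stood apart in Lars2 (0.137). On plain library totals this comparison gave 1 higher and 5 lower. With TMM scaling, 22.9% of all genes were called higher in it and 24.9% lower. For both agents over IL-13, Sh3pxd2b fell by 1.05 ± 0.15 (edgeR adjusted p 7.62e-05) and Noxa1 fell, with 1 of these calls left without IL-13 replicate 3 or butyrate + IL-13 replicates 1 or 3. Of all genes, 9.85% were called higher in that comparison and 11.3% lower. Parts of the phagocyte oxidase were at the edge of detection: summed over all 12 libraries Ncf1 had 24 counts and Ncf4 had 5, and neither was tested. Cybb, Nox3 and Nox4 were not analysed here.

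Of 22 listed genes that remove superoxide and peroxide, 20 were tested. For IL-13 over untreated 10 were called higher, 4 lower and 6 were not called, beside 21.8% of all genes called higher and 21.7% lower. The median of the list was 0.28 on the log2 scale, against -0.01 over all genes. Gpx2, the glutathione peroxidase of the gut epithelium, was at 1083, 938 and 907 CPM in IL-13 libraries, against 188, 168 and 170 CPM in untreated ones. The groups were far apart, with a log2 fold change of 2.48 ± 0.09 (edgeR adjusted p 7.28e-13). Srxn1, the sulfiredoxin that repairs overoxidised peroxiredoxins, rose by 1.64 ± 0.08 on the log2 scale (adjusted p 1.28e-11), and the peroxiredoxins Prdx1 and Prdx5 by 1.08 ± 0.10 (1.02e-07) and 0.95 ± 0.10 (5.4e-07). The 4 genes that fell were Sod3, Cat, Prdx4 and Txn1, named because they make up the whole of that count. Comparing both agents with butyrate, 12 were called higher and 4 lower, beside 22.9% and 24.9% of all genes, with Gpx2 at 2.67 ± 0.10 (adjusted p 2.27e-13). Butyrate over untreated gave 2 higher (Prdx6 and Srxn1) and 2 lower (Gpx3 and Gpx2), beside 5.14% and 2.76% of all genes. Without untreated replicate 3 neither higher call was left. Prdx6 and Gpx2 were also lost without butyrate replicate 1 (adjusted p 0.0614 and 0.0675), and Srxn1 without untreated replicate 2 (0.0882). Gpx3, a secreted glutathione peroxidase with 8 to 202 counts a library, was lower with butyrate in both settings, by -1.68 ± 0.30 over untreated (adjusted p 0.00165) and by -1.79 ± 0.34 for both agents over IL-13 (0.00116). Sod2, the mitochondrial superoxide dismutase, was the 1 gene of the list higher when both agents were compared with IL-13, by 0.35 ± 0.07 (edgeR adjusted p 0.00263). Of all genes, 9.85% were called higher there and 11.3% lower. The count of higher genes in the list was 2 without butyrate replicate 2 and 3 without butyrate replicate 3 or butyrate + IL-13 replicate 3.

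The NADPH that these enzymes use comes from a small set of dehydrogenases, and all 12 listed supply genes were tested. For IL-13 over untreated 6 were higher and 5 lower, beside 21.8% and 21.7% of all genes, with a median of 0.15 against -0.01 over all genes. Me1, the cytosolic malic enzyme, was at 143, 114 and 111 CPM in IL-13 libraries, against 11.2, 9.28 and 8.65 CPM in untreated ones, a log2 fold change of 3.65 ± 0.15 (edgeR adjusted p 1.69e-12). The groups did not overlap. G6pdx, which opens the pentose phosphate pathway, was at 198, 196 and 193 CPM in IL-13 libraries, against 59.1, 51.7 and 48.5 CPM in untreated ones (log2 fold change 1.88 ± 0.09, adjusted p 8.24e-12). Taldo1 of the same pathway rose by 0.76 ± 0.11 (2.28e-05) and Nadk, the NAD kinase, by 0.71 ± 0.07 (3.08e-07). The 5 lower genes were Idh1, Idh2, Nadk2, Nnt and Mthfd1, of which Idh2, Nadk2 and Nnt act in mitochondria. The comparison of both agents with butyrate gave 6 higher and 4 lower, beside 22.9% and 24.9% of all genes.

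In the comparisons of butyrate, the shares of supply genes called were near those of all genes (7.9% for butyrate over untreated and 21.2% for both agents over IL-13). Me1 was the 1 gene called for butyrate over untreated, lower by -0.65 ± 0.16 (edgeR adjusted p 0.0186), a call lost without untreated replicate 1 (0.0969) or butyrate replicate 1 (0.0807); 2 genes were called lower without butyrate replicate 3, none was called higher by edgeR or DESeq2, and 1 had an unadjusted p under 0.05 in the higher direction. With both agents over IL-13 alone, Idh2 was higher by 0.77 ± 0.12 (0.000139) and Nadk by 0.28 ± 0.07 (0.00864), with none lower by edgeR, by DESeq2 or at an unadjusted p under 0.05 and 4 higher without butyrate replicates 2 or 3. Without butyrate + IL-13 replicate 2 there was 1 lower call. The interaction was called for Idh2 at 0.73 ± 0.16 (adjusted p 0.0319) and for Me1 at 0.90 ± 0.21 (0.0471), beside 0.865% of all genes. The Idh2 call was lost without any 1 of the untreated replicates, butyrate replicate 1, IL-13 replicates 1 or 2, or butyrate + IL-13 replicates 2 or 3, with adjusted p up to 0.096, and without both libraries that stood apart in Lars2 (0.0847). The Me1 call was lost without any 1 library other than butyrate replicate 2 and IL-13 replicate 1, with adjusted p up to 0.166. On plain library totals neither interaction was called (0.0537 for Idh2 and 0.0655 for Me1), nor was Nadk for both agents over IL-13 (0.106).

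Among 10 genes of the NRF2 response, the transcriptional programme against oxidative stress, 5 rose and 1 fell for IL-13 over untreated, beside 21.8% of all genes called higher and 21.7% lower, with a median of 0.35 against -0.01. On plain library totals 3 fell. Those that rose were Hmox1 by 1.12 ± 0.15 (edgeR adjusted p 9.85e-06), Osgin1 by 0.95 ± 0.10 (3.06e-07), Gclc by 0.87 ± 0.09 (2.78e-07), Ftl1 by 0.66 ± 0.09 (1.55e-05) and Slc7a11 by 0.54 ± 0.15 (0.00721). Nqo1, often used as its marker gene, was at -0.13 ± 0.08 (adjusted p 0.183), and Nfe2l2, which encodes NRF2, fell by 0.30 ± 0.08 (0.00361). Hmox1, which degrades haem, was at 27.7, 26.1 and 36.6 CPM with both agents, 18.2, 17.5 and 22.2 CPM with IL-13, 14.98, 11.9 and 12.97 CPM with butyrate, and 9.59, 8.63 and 8.31 CPM in untreated enteroids. No 2 of these groups overlapped. Butyrate over untreated gave 3 higher calls (Fth1, Osgin1 and Hmox1) and none lower, beside 5.14% and 2.76% of all genes. Of the higher calls, 1 was left without untreated replicate 3 or butyrate replicate 1. In the lower direction 2 had an unadjusted p under 0.05, 1 was called by DESeq2, and 1 was called by edgeR without butyrate replicate 3. Hmox1 was lost without untreated replicate 2 too (0.0876), and Osgin1 without untreated replicate 1 (0.0598). For both agents over IL-13, Hmox1 was higher by 0.65 ± 0.14 (0.00399), Osgin1 was higher by 0.38 ± 0.09 (0.00786), lost without IL-13 replicate 3 (0.0506) or on plain library totals (0.0568), and Gclc was lower by -0.55 ± 0.09 (0.000227). Without butyrate replicates 2 or 3 or butyrate + IL-13 replicate 1 a second gene was called lower. Of all genes, 9.85% were called higher for both agents over IL-13 and 11.3% lower. Both agents over butyrate gave 5 higher and 2 lower, beside 22.9% and 24.9% of all genes.

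The 15 genes of microbial sensing and NF-kB signalling, pathways known to induce dual oxidases, include receptors, adaptors and transcription factors. For IL-13 over untreated 4 rose (Tnfaip3, Nfkb2, Tlr3 and Relb) and 3 fell (Nos2, Tlr2 and Nod1), with a median of 0.12 against -0.01 over all genes. These shares of the 15 were near those of all genes, 21.8% higher and 21.7% lower. The largest rise was that of Nfkb2 at 0.79 ± 0.12 (edgeR adjusted p 4.5e-05), and Nos2, the inducible nitric oxide synthase, fell by 2.11 ± 0.35 (9.15e-05). On plain library totals the split was 2 higher and 5 lower. Butyrate over untreated gave no edgeR call in the list and none by DESeq2, beside 5.14% of all genes called higher and 2.76% lower by edgeR. There was 1 gene at an unadjusted p under 0.05, and 1 lower call without butyrate replicate 3. Both agents over butyrate gave 5 higher and 1 lower, beside 22.9% and 24.9% of all genes, with 2 lower without butyrate replicate 1. For both agents over IL-13 4 were higher and none lower by edgeR, by DESeq2 or at an unadjusted p under 0.05. By edgeR, 9.85% of all genes were called higher in this comparison and 11.3% lower. The 4 were Relb at 0.45 ± 0.10 (edgeR adjusted p 0.00443), Nfkbia at 0.32 ± 0.08 (0.0112), Tnfaip3 at 0.27 ± 0.08 (0.023) and Nfkb1 at 0.26 ± 0.08 (0.0261). Without IL-13 replicate 1, or on plain library totals, 1 of these was left. Tnfaip3 was also lost without IL-13 replicate 2 (0.12) or butyrate + IL-13 replicate 3 (0.0671), and Nfkb1 without IL-13 replicate 3 (0.108). Without both libraries that stood apart in Lars2, Tnfaip3 (0.0659) and Nfkb1 (0.0557) were not called.

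**Figure D5:**
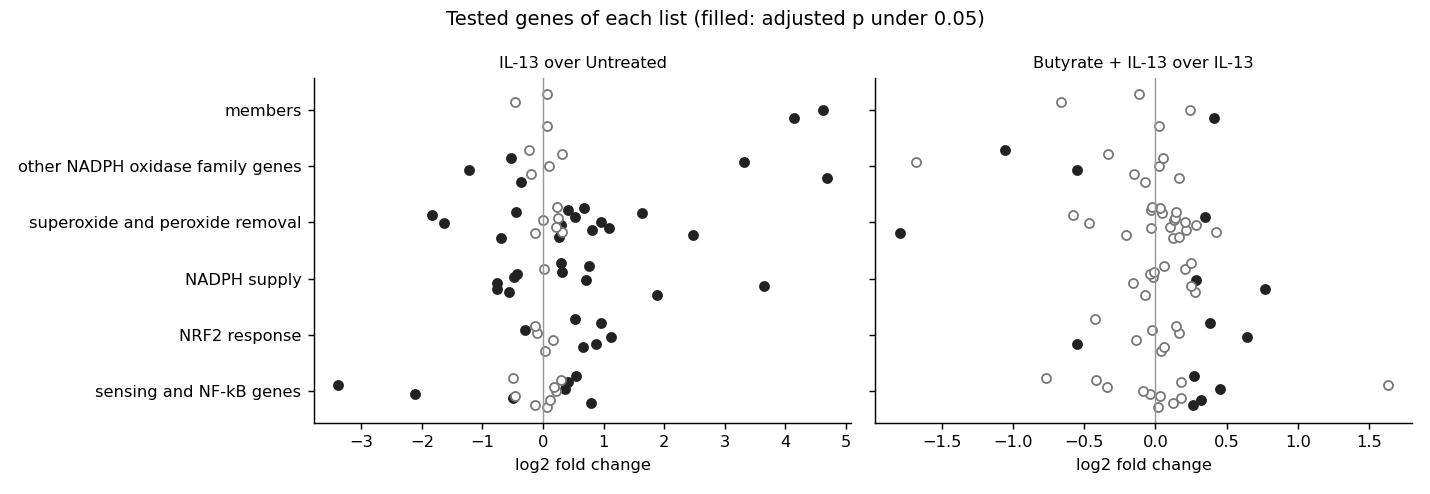
Each point is the log2 fold change of 1 tested gene of a list, for IL-13 over untreated on the left and for both agents over IL-13 on the right, filled where the adjusted p was under 0.05; the 2 axes have different ranges. Duox2 and Duoxa2 at 4.14 and 4.63, Duoxa1 at 4.69 and Me1 at 3.65 lie at the right of the IL-13 panel.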

How the data were processed

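Poly(A) RNA of 12 enteroid libraries, 3 per group, was analysed from a single deposited table of whole-number counts per gene, which the authors had not normalised. Per the file headers, the deposited table also gives a p-value, an FDR and a log2 fold change from the authors' own DESeq test of untreated against IL-13 libraries, and it lists genes whose corrected p there was below 1. The submitters' processing notes name build mm10; aligner, counting tool and strand setting are not stated in these sources. Of 18092 rows, 17799 had an identifier in the annotation, and rows of 23 genes with several were summed, leaving 18068 genes. Column names starting with US were read as untreated.

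The quasi-likelihood test of edgeR 4.0.16 (glmQLFit with robust estimation; R 4.3.3, limma 3.58.1) was run on TMM-scaled counts, and filterByExpr left 13750 genes to test and dropped 4318. Every library entered 1 fit without a replicate block, with 8 residual degrees of freedom and a biological coefficient of variation of 10.2%. P-values were adjusted by Benjamini-Hochberg over all tested genes and called under 0.05. Per-kb levels divide CPM by exon length; log2 CPM for pattern likeness used a prior count of 2. Count ratios were compared by exact permutation tests. Replicates differed beyond sampling noise, so each library counted once.

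Alternatives were RLE scaling, plain totals, DESeq2 1.42.0, no filter, a mean of at least 50 counts, fitting only the groups compared, a replicate block, thinning to the lowest total, leaving out both libraries highest in Lars2, and leaving out each library. The edgeR script was tested on simulated data. Other software was Python 3.11.15 with numpy 2.4.6, pandas 2.3.3 and matplotlib 3.10.9. Named were all 5 genes, up to 4 called genes of each list and comparison with the smallest adjusted p, list genes with no test (1 of which is not reported here), and the 3 genes of most similar pattern, predicted genes skipped. Rac3, Sod3, Cat, Prdx4, Txn1, Idh1, Nadk2, Nnt, Mthfd1, Slc7a11, Nqo1, Nfe2l2, Tlr3, Nod1, Cstf2 and Gm20388 were named after their values were seen or for their position. The 5 genes and the lists were chosen with earlier results of these data known. Promoter sequences are from RefSeq on GRCm38.p6, where all 5 genes matched by symbol.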

Additional observations from a re-analysis of the deposited data

Results flagged for a closer look

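The response of Duoxa2 to IL-13 differed with and without butyrate, by an interaction of 0.90 on the log2 scale (edgeR adjusted p 0.00732), and that of Duox2 by 0.67 (adjusted p 0.0187). Both were larger with butyrate. For Duoxa2 the log2 fold change with butyrate was -0.65 without IL-13 (edgeR adjusted p 0.00131) and 0.24 with it (0.0939, not called). For Duox2 it was -0.25 without IL-13 (0.127, not called) and 0.41 with it (0.00326). Duoxa2 was called under each of the 20 alternatives, and Duox2 under 16 of them.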

How the results depend on the processing

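Of 25 values, 5 genes in 5 comparisons, 14 kept their direction and their side of the threshold under each alternative tried (21 for each pairwise comparison, 20 for the interaction); among them are both IL-13 contrasts of Duox2 (4.14 and 4.81; lowest and highest 3.98 to 4.24 and 4.58 to 4.89) and Duoxa2 (4.46 to 4.71 and 5.30 to 5.63) and the Duoxa2 interaction (0.79 to 1.00). Calls gained or lost were as follows, and the cause was not tested. Duoxa2 for both agents over IL-13 was called when only those groups were fitted (0.25), with DESeq2 (0.27) and in 2 of the 12 fits that left out 1 library (0.24 in both; all 12 ran from 0.21 to 0.32). Nox1 for both agents over butyrate was lost without both libraries that stood apart in Lars2 (the Lars2 libraries; -0.76) and in 2 of those 12 fits (-0.66 and -0.71; all 12 ran from -1.09 to -0.66). The Duox2 interaction was lost in 4 of the 12 (0.57 to 0.67; all 12 ran from 0.57 to 0.74). Cyba for both agents over butyrate turned negative on plain totals (-0.0396) and ranged from 0.12 to 0.31 without single libraries. Signs of values that were never called also turned: Noxo1 for IL-13 over untreated on plain totals (-0.0955; -0.0365 to 0.17 without single libraries), Cyba for the same (-0.10), Noxo1 for butyrate over untreated without the Lars2 libraries (0.0223; -0.13 to 0.0768), Cyba for both agents over IL-13 on plain totals (-0.10) and without the Lars2 libraries (-0.0603; -0.0432 to 0.13), Noxo1 for both agents over butyrate with RLE and DESeq2 (0.00865 and 0.00862; -0.0606 to 0.0442), the Noxo1 interaction (-0.19 to 0.0175), the Cyba interaction without the Lars2 libraries (-0.0336) and the log2 ratio of Nox1 to Noxo1 for butyrate over untreated (-0.47 to 0.0432).

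Counts of called genes without single libraries ran from 557 to 1401 for butyrate over untreated (1086 with all), 1929 to 3444 for both agents over IL-13 (2912) and 55 to 216 for the interaction (119), where DESeq2 called 276. On plain totals the median log2 fold change of all genes shifted by -0.17 for IL-13 over untreated, -0.13 for both agents over IL-13 and -0.23 for both agents over butyrate. Replicate numbers did not pair the libraries: correlations of same-numbered libraries ran from -0.15 to 0.10, and not every library matched its own number best. The replicate block gave 0.66 and 0.90 for the interactions of Duox2 and Duoxa2 and 5866, 978, 2757, 6447 and 114 called genes, and it changed no call among the 5 genes. Depth limits Nox1, at 23 to 140 counts a library.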
